A study of Homo sapiens with 6 samples.

Results

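The 10 transcripts described here encode YAP1 and its paralog TAZ (gene symbol WWTR1), the DNA-binding factors TEAD1 and TEAD2, and 6 proteins that act beside them or whose genes they are known to drive: CYR61, CTGF, ANKRD1, AMOTL2, AJUBA and LATS2. They were picked by symbol from a table of counts for 58051 genes, and each symbol matched 1 row. RNA came from HEK293T cells, an established line derived from human embryonic kidney, in which the SV40 T-antigen is present. The empty vector group (3 libraries) had received the expression plasmid pcDNA3.1- without an insert, and the ppk1 group (3 libraries) the same plasmid carrying ppk1, the gene of a bacterial enzyme that joins phosphates into polyphosphate chains. Both groups were at about 70% confluency when transfected with lipofectamine reagents, received 2 to 28 μg of plasmid, and were collected after 48 hours in OptiMeM. Transfection was transient in a cell pool, and a library of each group shares its letter (B, C or D) with a matched biological replicate of the other. The number of cells and their spreading at harvest are not given in the sources used here.

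YAP1 and TAZ are coactivators that carry no DNA-binding domain of their own and reach chromatin through TEAD factors. When cells are crowded, rounded or on a soft surface, the Hippo kinases MST1 and MST2 activate LATS1 and LATS2, which phosphorylate YAP1 and TAZ and keep them in the cytoplasm. When cells are sparse and spread, YAP1 and TAZ enter the nucleus and transcripts such as CYR61, CTGF and ANKRD1 rise, so these transcripts are often read as a gauge of density and spreading. The main control is on the protein and its location, which RNA counts do not show.

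The promoter letters of these genes are shown first because TEAD factors are known to bind the sequence GGAATG, which recurs close to the start of 2 of the classical targets. RefSeq's promoter table (GRCh38.p14) held 12 windows for 8 of the 10 genes, each covering 250 bases before a gene start and 50 after it. TEAD1 and CYR61 had no entry. GGAATG, read on both strands, occurred in 6 of the 12 windows, against 14.0% of all 35116 windows of that table. It occurred 3 times in the window of CTGF and 2 times in that of ANKRD1, and 1.37% of all windows held 2 or more copies. The windows of YAP1 and LATS2, and 1 of the 2 windows each of AMOTL2 and AJUBA, held 1 copy, while those of WWTR1 and TEAD2 held none. The AP-1 motif TGANTCA, also read on both strands, was found once, in ANKRD1 (7.71% of all windows), where it did not overlap a GGAATG copy, and the CArG box of SRF was found in none of the 12 (1.29% of all windows). A match of letters is a description of the window and does not show that a factor binds there. The 250 bases before the start are printed below for the windows with most copies, CTGF and ANKRD1, and for the AMOTL2 and AJUBA windows that hold a copy, since these 2 genes gave the smallest p-values of the 10. All 4 lie on the minus strand, at chr6:131951373-131951622 (CTGF), chr10:90921088-90921337 (ANKRD1), chr3:134374448-134374697 (AMOTL2) and chr14:22976843-22977092 (AJUBA), and are written 5′ to 3′ with the motif or its reverse complement in capitals.
CTGF: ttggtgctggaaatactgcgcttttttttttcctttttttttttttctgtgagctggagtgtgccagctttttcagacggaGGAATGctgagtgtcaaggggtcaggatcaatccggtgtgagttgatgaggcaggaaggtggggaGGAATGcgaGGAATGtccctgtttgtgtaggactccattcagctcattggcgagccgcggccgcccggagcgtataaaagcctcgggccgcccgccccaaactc
ANKRD1: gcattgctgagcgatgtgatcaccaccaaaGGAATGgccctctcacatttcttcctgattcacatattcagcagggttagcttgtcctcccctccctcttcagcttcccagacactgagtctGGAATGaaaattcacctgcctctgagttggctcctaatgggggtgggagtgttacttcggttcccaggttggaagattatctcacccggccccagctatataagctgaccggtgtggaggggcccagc
AMOTL2: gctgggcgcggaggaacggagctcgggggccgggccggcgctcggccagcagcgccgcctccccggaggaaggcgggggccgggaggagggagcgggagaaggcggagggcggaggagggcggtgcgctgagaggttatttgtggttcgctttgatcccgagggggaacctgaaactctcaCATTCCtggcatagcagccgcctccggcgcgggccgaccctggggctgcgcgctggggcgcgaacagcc
AJUBA: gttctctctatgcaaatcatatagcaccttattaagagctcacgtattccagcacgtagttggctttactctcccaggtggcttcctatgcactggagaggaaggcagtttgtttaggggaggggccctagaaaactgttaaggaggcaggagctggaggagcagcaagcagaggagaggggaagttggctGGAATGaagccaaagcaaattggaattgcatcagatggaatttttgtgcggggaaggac
The copies of CTGF begin 169, 104 and 95 bases before its start, and those of ANKRD1 220 and 128 bases before. In AMOTL2 the motif lies on the other strand, 69 bases before the start, and in AJUBA it begins 59 bases before.

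The libraries held between 40851783 and 67122986 counts, and in every pair more were from the ppk1 library. All 7 markers fixed for the HEK293 line (NEFL, NEFM, VIM, PAX2, LHX1, KRT8 and KRT18) were detected, with a summed level of 767 to 892 CPM (the usual library-scaled count, here with totals scaled by TMM factors) in the empty vector group and 739 to 785 with ppk1. Endothelial markers (5 genes) summed to at most 0.677 CPM and blood cell markers (6 genes) to at most 2.23 CPM in any library. Fibroblast markers (8 genes, cells in which CTGF and CYR61 are known to be abundant) summed to 21.1 to 25.8 and 24.1 to 24.3 CPM, mostly from COL1A1, and 5 of them were below 1 CPM. The ppk1 transcript itself was not analysed here.

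Of the 10 genes, 1 was called different between the groups, AMOTL2, which was higher with ppk1. The call was a Benjamini-Hochberg adjusted p below 0.05 in edgeR's quasi-likelihood test over 19574 genes with the replicate letter as a block, and 9.08% of all tested genes passed it (4.04% higher and 5.04% lower with ppk1, or 791 and 986 genes). With upper-quartile scaling the split was 422 higher and 933 lower. A share of 1 in 10 is close to that background. At an unadjusted p below 0.05 there were 2 of the 10 (AMOTL2 and AJUBA), beside 23.8% of all genes. Without the replicate block 0 of the 10 were called, beside 2.4% of all genes, and 2 had an unadjusted p below 0.05. The log2 fold change was above 0 for 6 of the 10 and for 53.1% of all genes. All 10 genes passed the filter on low counts. The median of their log2 fold changes was 0.06, beside 0.01 over all tested genes, and they ran from -0.20 (AJUBA) to 0.31 (AMOTL2). For 8 of the 10 the 95% interval of the log2 fold change included 0. For 9 of the 10 it lay within a 1.5-fold change in either direction, a bound chosen after the values were seen. The exception was ANKRD1, the gene with the fewest counts. In bulk RNA, fewer cells with a transcript and less of it per cell cannot be told apart.

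**Figure D1:**
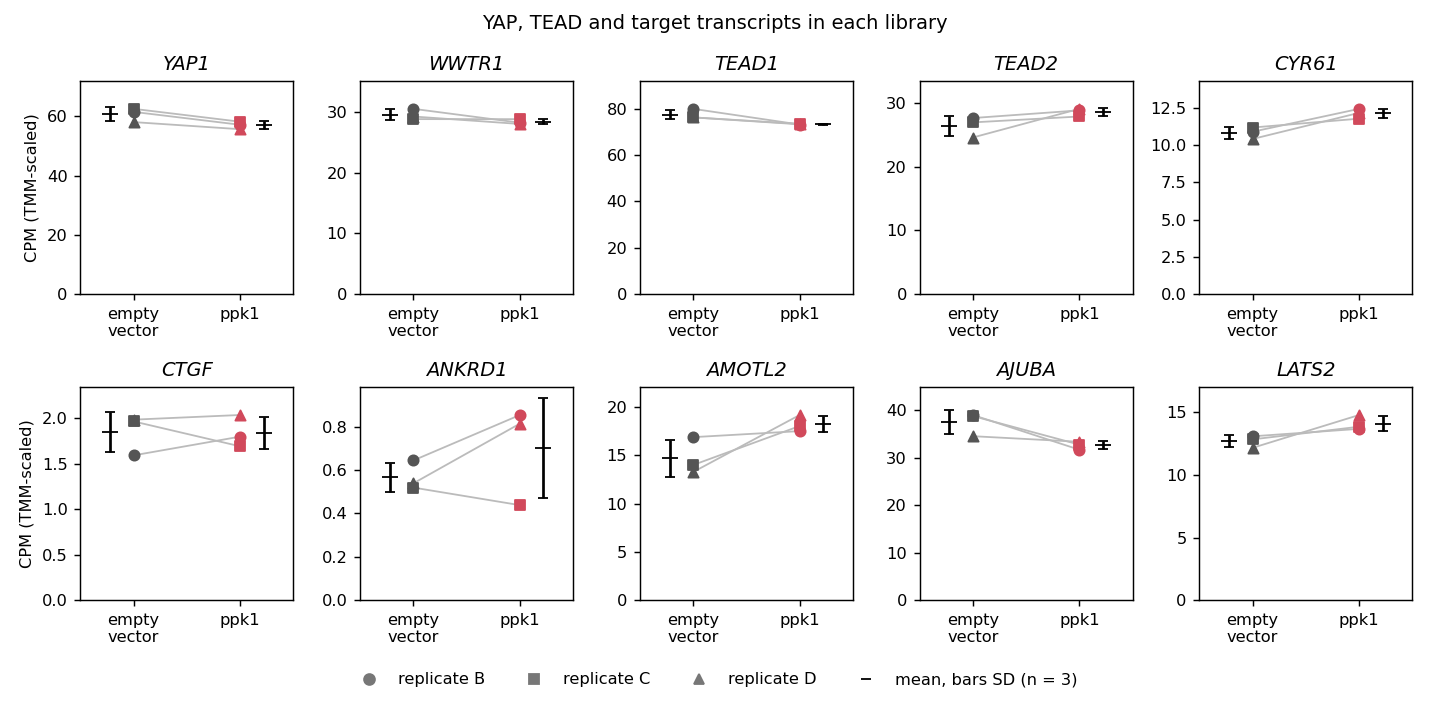
Level of each of the 10 transcripts in the 6 libraries, in CPM on axes that start at 0, with empty vector libraries in grey, ppk1 libraries in red, symbols for the replicate letter, lines joining matched libraries, and bars for the mean ± SD of 3 libraries. AMOTL2 lay between 13.3 and 16.9 CPM in the empty vector group and between 17.5 and 19.2 CPM with ppk1, while CTGF lay between 1.59 and 2.03 CPM over both groups.

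YAP1 (ENSG00000137693, chromosome 11) is the coactivator itself. Its level in empty vector libraries B, C and D was 61.5, 62.5 and 58.1 CPM, and in the ppk1 libraries 57.2, 58.2 and 55.7 CPM. The ppk1 library was the lower of each pair, but the groups overlapped. The log2 fold change was -0.09 (SE 0.07, 95% interval -0.24 to 0.06), with an adjusted p of 0.49. WWTR1 (ENSG00000018408, chromosome 3), which encodes TAZ, stood at 30.5, 28.8 and 29.2 CPM with the empty vector and at 28.2, 28.8 and 28.0 CPM with ppk1. The groups met almost exactly in pair C, whose difference was -0.00037 on the log2 scale. Over all 3 pairs its log2 fold change was -0.06 (SE 0.08, interval -0.21 to 0.10, adjusted p 0.70). Neither coactivator passed the test.

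TEAD1 (ENSG00000187079, chromosome 11), 1 of the 4 TEAD factors through which YAP1 and TAZ act, stood at 79.9, 76.2 and 76.2 CPM in empty vector libraries and at 73.1, 73.4 and 73.3 CPM with ppk1. The groups did not overlap, and the ppk1 libraries agreed closely (mean ± SD 73.3 ± 0.148 CPM, against 77.5 ± 2.13, n = 3 each). The difference was small, with a log2 fold change of -0.08 (SE 0.07, interval -0.23 to 0.07) and an adjusted p of 0.56. TEAD2 (ENSG00000074219, chromosome 19) stood at 27.6, 26.9 and 24.6 CPM with the empty vector and at 28.8, 27.9 and 29.1 CPM with ppk1. Its groups did not overlap either, with the ppk1 libraries above. The log2 fold change was 0.12 (SE 0.08, interval -0.04 to 0.27), with an adjusted p of 0.39. Whether TEAD1 and TEAD2 differ from each other in their response was not tested.

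CYR61, CTGF and ANKRD1 are the transcripts most often used to read YAP and TAZ activity. CYR61 (ENSG00000142871, chromosome 1) encodes a secreted matrix protein that is also an immediate early gene product. It stood at 10.9, 11.2 and 10.4 CPM in libraries B, C and D of the empty vector group, and at 12.4, 11.8 and 12.2 CPM with ppk1. The ppk1 libraries lay above all empty vector libraries, by 0.19, 0.07 and 0.22 on the log2 scale in pairs B, C and D. The fitted log2 fold change of 0.16 (SE 0.09, interval -0.02 to 0.35) did not pass the test (adjusted p 0.29).

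CTGF (ENSG00000118523, chromosome 6), a secreted relative of CYR61 and the gene with 3 GGAATG copies above, had 84, 87 and 81 counts in the empty vector libraries and 120, 81 and 85 counts with ppk1. Scaled to library size, these were 1.59, 1.96 and 1.98 CPM and 1.80, 1.69 and 2.03 CPM. The ranges overlapped and the pairs disagreed in sign (0.17, -0.21 and 0.04 on the log2 scale). The log2 fold change was 0.0040 (SE 0.17), and its sign changed with the scaling method. Its interval ran from -0.33 to 0.34, so a change within this range, in either direction, cannot be told from none. CTGF did not pass the test (adjusted p 0.99 in edgeR).

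ANKRD1 (ENSG00000148677, chromosome 10), a nuclear ankyrin repeat protein of stretched muscle and a sensitive YAP target, had few counts. They were 34, 23 and 22 with the empty vector and 57, 21 and 34 with ppk1. Scaled, they were 0.64, 0.52 and 0.54 CPM and 0.85, 0.44 and 0.81 CPM. The ppk1 library was the higher of pairs B and D and the lower of pair C, and the groups overlapped. The log2 fold change of 0.29 had the widest error of the 10 (SE 0.26, interval -0.23 to 0.81, adjusted p 0.53).

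The other 3 genes encode proteins that restrain YAP1 and TAZ or act on the kinases that do. AMOTL2 (ENSG00000114019, chromosome 3), an angiomotin that binds YAP1 in the cytoplasm and is itself a known YAP target, had 891, 620 and 542 counts in empty vector libraries B, C and D, and 1169, 864 and 801 with ppk1. In CPM these were 16.9, 14.0 and 13.3 and 17.5, 18.0 and 19.2. The groups did not overlap, but empty vector library B came close to the ppk1 libraries. The pair differences were therefore unequal, at 0.05, 0.36 and 0.53 on the log2 scale for B, C and D. The fitted rise was a log2 fold change of 0.31 (1.24-fold, SE 0.09, interval 0.13 to 0.49), with an adjusted p of 0.020. The call depended on the model and on single replicates. The adjusted p was 0.13 without the replicate block, 0.072 with upper-quartile scaling and 0.13 in DESeq2. Without replicate D the log2 fold change was 0.18 (adjusted p 0.22) and without replicate C it was 0.28 (adjusted p 0.39), whereas without replicate B it was 0.45 (adjusted p 0.00097).

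AJUBA (ENSG00000129474, chromosome 14), a LIM protein of cell junctions that holds LATS kinases in check, stood at 39.0, 38.8 and 34.5 CPM with the empty vector and at 31.7, 32.7 and 33.3 CPM with ppk1. The ppk1 libraries lay below all empty vector libraries, most in pairs B and C (-0.30 and -0.24 on the log2 scale) and least in D (-0.05). The log2 fold change of -0.20 (SE 0.08, interval -0.35 to -0.05) did not pass the adjusted test (0.094). Without replicate D it was -0.29 and passed (adjusted p 0.0075). LATS2 (ENSG00000150457, chromosome 13), the kinase that phosphorylates YAP1 and is also a target of it, stood at 13.1, 12.8 and 12.2 CPM and at 13.7, 13.9 and 14.8 CPM. The ppk1 libraries again lay above the others without overlap. Its log2 fold change was 0.15 (SE 0.09, interval -0.03 to 0.33, adjusted p 0.32).

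**Figure D2:**
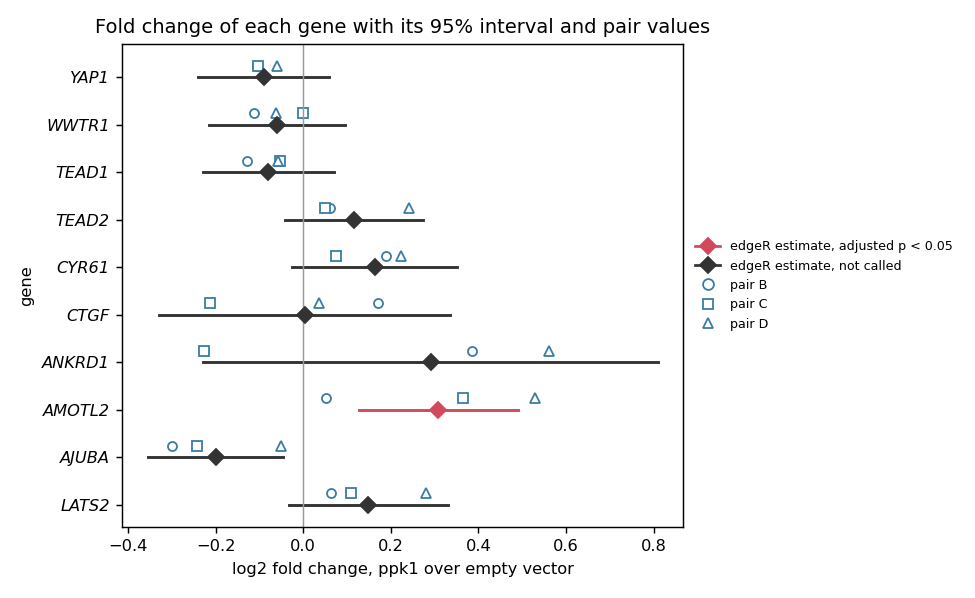
Log2 fold change of ppk1 over empty vector for each of the 10 genes, with the edgeR estimate as a diamond, its 95% interval as a line and the differences in pairs B, C and D as open symbols above it. AMOTL2 (0.31, in red) is the gene called at an adjusted p below 0.05, and the line of ANKRD1, from -0.23 to 0.81, is the widest.

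Counted together, the ppk1 and empty vector libraries did not overlap for 7 of the 10 genes, 4 of them higher with ppk1 (TEAD2, CYR61, AMOTL2 and LATS2) and 3 lower (WWTR1, TEAD1 and AJUBA). WWTR1 is a near tie, at 28.80 CPM in empty vector library C and 28.79 CPM in ppk1 library C. It is nevertheless included in this count and in that of pair signs below. Over all tested genes the groups did not overlap for 25.6% (13% higher and 12.6% lower). For 8 genes the 3 pairs had 1 sign, positive for 4 and negative for 4, against 22.6% and 21.1% of all tested genes. The members share their 6 libraries, so these counts are not independent of each other. The count depends on the scaling. TMM factors were 1.04, 1.03 and 1.00 for the empty vector libraries and 0.996, 0.955 and 0.980 for the ppk1 libraries. When libraries were scaled by their total alone, 4 genes did not overlap, 0 higher and 4 lower, and over all tested genes the share was 25.9% (6.43% higher and 19.5% lower).

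For 8 of the 10 genes, grouped after their values were seen, the levels formed 2 sets across the 6 libraries of both groups. Across the 6 libraries, log2 CPM of YAP1, WWTR1, TEAD1 and AJUBA correlated positively with each other (Pearson's r from 0.67 for YAP1 with WWTR1 to 0.94 for WWTR1 with TEAD1). TEAD2, CYR61, AMOTL2 and LATS2 formed the other set, with r from 0.80 for CYR61 with AMOTL2 to 0.93 for AMOTL2 with LATS2. CTGF belonged to neither set, with r from -0.63 (WWTR1) to 0.16 (ANKRD1), and ANKRD1 correlated with the second set at 0.46 to 0.56. These are descriptions over 6 libraries that include both groups and share their depth and scaling. Every gene of the first set had a log2 fold change below 0, and every gene of the second had one above 0. The correlations thus restate, in part, the difference between the groups, and correlations within a group were not computed. Among 15086 other genes (mean count 50 or more), those most like YAP1 across the 6 libraries were DYRK1A, DCP1A and C17orf53 (r = 0.98 for each). EGR3 (0.99), ADCY10P1 (0.99) and FHAD1 (0.98) were most like CYR61, and ZNF432 (0.98), FANCM (0.97) and PLA2G7 (0.96) most like CTGF. These are the highest of 15086 values over only 6 libraries, so such an r does not show shared control. No test was made of them.

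Levels were compared between genes only per kilobase of merged exons in GENCODE 29, which counts exons of all annotated transcripts and so understates a gene whose main transcript is short. In the empty vector group YAP1 (9.64 ± 0.372 CPM per kilobase, mean ± SD, n = 3) and TEAD2 (8.85 ± 0.538) were highest, and their libraries overlapped. They were followed by TEAD1 (7.54 ± 0.207), AJUBA (6.26 ± 0.420), CYR61 (4.41 ± 0.158) and WWTR1 (3.51 ± 0.105), each apart from its neighbours. AMOTL2 (2.46 ± 0.319) and LATS2 (2.28 ± 0.0855) overlapped. CTGF (0.789 ± 0.0945) and ANKRD1 (0.287 ± 0.0339) were lowest. With ppk1 the order was the same except at the top, where TEAD2 (9.60 ± 0.213) stood above YAP1 (9.05 ± 0.202), and no neighbours overlapped. Of the other TEAD factors, TEAD4 had the highest level of the family (12.4 ± 1.09 and 13.02 ± 0.597 CPM per kilobase in the empty vector and ppk1 groups), and TEAD3 stood at 4.74 ± 0.702 and 4.15 ± 0.315.

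**Figure D3:**
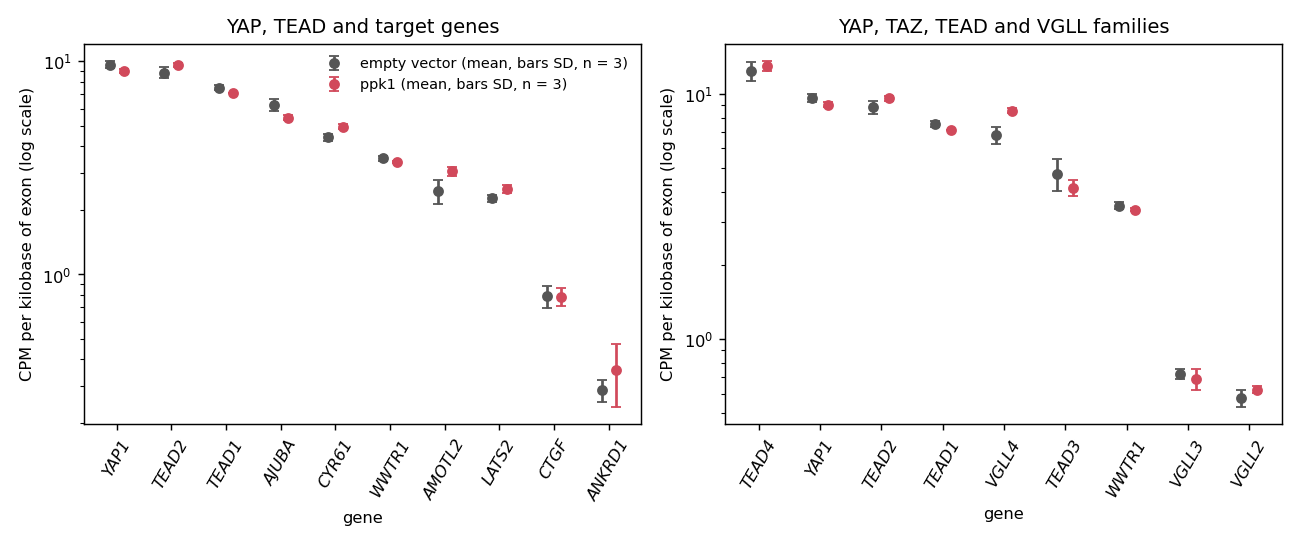
Level per kilobase of exon on a log scale, mean with bars for the SD of 3 libraries, for the 10 genes (left) and for YAP1, WWTR1 and the TEAD and VGLL factors (right), with the empty vector group in grey and ppk1 in red. CTGF and ANKRD1, at 0.789 and 0.287 CPM per kilobase with the empty vector, stand well below the other 8 genes. VGLL1, at 0.33 counts per library on average, is not drawn.

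Around these genes, 6 lists cover the rest of the pathway. Of the 10 TEAD and VGLL factors, 9 could be tested and 1 was called (11.1%, beside 9.08% of all tested genes). VGLL4, which competes with YAP1 for TEAD, stood at 53.3, 48.9 and 45.6 CPM with the empty vector and at 62.2, 63.2 and 60.5 CPM with ppk1. Every ppk1 library was above every empty vector library. VGLL4 rose by a log2 fold change of 0.33 (SE 0.08, adjusted p 0.0025), and was also called without the replicate block (adjusted p 0.041) but not without replicate C (0.20). Its exons overlap ATG7 and another gene on the opposite strand. TEAD3 and TEAD4 had log2 fold changes of -0.19 and 0.07 (adjusted p 0.20 and 0.64). The median of the list was -0.06.

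In the Hippo kinase cassette and its activators, 1 of 17 genes was called (5.88%, beside 9.08% of all tested genes). STK3, which encodes the kinase MST2, stood at 28.8, 27.5 and 31.9 CPM in the empty vector group and at 25.2, 23.3 and 25.1 CPM with ppk1. The groups did not overlap. STK3 fell by a log2 fold change of -0.26 (SE 0.08, adjusted p 0.028), a call that was lost without the block (0.11), without replicate C (0.39), without the low-count filter (0.054), in DESeq2 (0.090), without empty vector library D (0.050) and without ppk1 library D (0.084). Its paralog STK4 (MST1) had a log2 fold change of 0.02, and LATS1, the paralog of LATS2, one of -0.04. The list ran from -0.26 to 0.15 with a median of 0.02.

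The YAP and TAZ target list held 22 genes, among them CYR61, CTGF, ANKRD1, AMOTL2 and LATS2, and 21 were tested. AMOTL2 was called higher, and 2 genes were called lower, which makes 14.3% of the list beside 9.08% of all genes. GADD45A, a DNA damage and growth arrest gene, stood at 81.6, 64.8 and 61.5 CPM and at 56.9, 49.3 and 57.6 CPM with ppk1. It fell by a log2 fold change of -0.34 (SE 0.08, adjusted p 0.0030, and 0.10 without the block or 0.22 without replicate C). RBMS3, an RNA-binding protein gene, stood at 2.95, 2.96 and 3.45 CPM and at 2.17, 1.92 and 2.13 CPM. Its log2 fold change was -0.58 (SE 0.15, adjusted p 0.0070). It was not called without replicate C (0.11) or in DESeq2 (0.13). The groups did not overlap for either gene. Positive values were found for 12 of the 21 tested genes, beside 53.1% of all tested genes. The median was 0.02, beside 0.01 for all tested genes. By pair, the median was 0.05 in B, -0.15 in C and 0.07 in D.

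Of 16 cytoplasmic partners of YAP and LATS, which include angiomotins, AJUBA-type LIM proteins, PTPN14 and 14-3-3 proteins, AMOTL2 was again the 1 call. That is a share of 6.25%, beside 9.08% of all tested genes. AMOT, the founding angiomotin, stood at 493 and 544 CPM on average and had a log2 fold change of 0.14 (adjusted p 0.24). LIMD1 and WTIP, relatives of AJUBA, had values of 0.21 and 0.27 (adjusted p 0.080 and 0.097), where that of AJUBA was negative. The median was 0.11, and 13 of the 16 values were positive, beside 53.1% of all tested genes. The list as a set was not tested. None of the 20 genes for junction and polarity proteins, which carry contact signals to the Hippo kinases, was called by edgeR or by DESeq2. At an unadjusted p below 0.05 these tests gave 4 and 2 genes, where edgeR gave 23.8% of all tested genes. The edgeR values ran from -0.42 to 0.18. Without replicate B, 2 of the 20 were called, beside 2435 of all 19422 genes tested in that fit. Without the empty vector library of B alone, 4 of the 20 were called, beside 2607 of all 19712 genes.

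Matrix adhesion and spreading genes had 4 calls among 19 tested (20 in the list), or 21.1%, beside 9.08% of all tested genes. Of these calls, THBS1 passed the filter on low counts only through the ppk1 group, where it was higher, and the share includes it. FN1, which encodes fibronectin, stood at 72.6, 66.6 and 67.5 CPM with the empty vector and at 57.7, 49.6 and 50.5 CPM with ppk1, so that the groups were well apart. It fell by a log2 fold change of -0.39 (SE 0.08, adjusted p 0.00028, and 0.024 without the block or 0.074 without replicate C). ZYX and FLNA, whose proteins zyxin and filamin A bind actin structures, rose by 0.33 and 0.30 (adjusted p 0.0028 and 0.011). ZYX stood at 95.02, 89.9 and 74.8 CPM and at 107, 117 and 101 CPM with ppk1. FLNA stood at 655, 610 and 465 CPM and at 685, 730 and 700 CPM, with pair differences of 0.07, 0.26 and 0.59 for B, C and D. Neither was called without the block (0.090 and 0.18) or without replicate C (0.23 and 0.11), and FLNA had a log2 fold change of 0.14 without replicate D (0.27). THBS1, a secreted matrix protein gene, had 6, 1 and 5 counts with the empty vector and 18, 11 and 10 with ppk1. Its log2 fold change of 1.49 (SE 0.48, adjusted p 0.040) was lost without the block (0.11), without replicate C (0.49), with upper-quartile scaling (0.067) and without the low-count filter (0.073). It had no test with the stricter filter, after thinning, in DESeq2 or without replicate B, so its call carries little weight. The median of the list was -0.02, and the 8 integrin genes ran from -0.20 (ITGA1) to 0.07 (ITGB5) with 0 called.

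**Figure D4:**
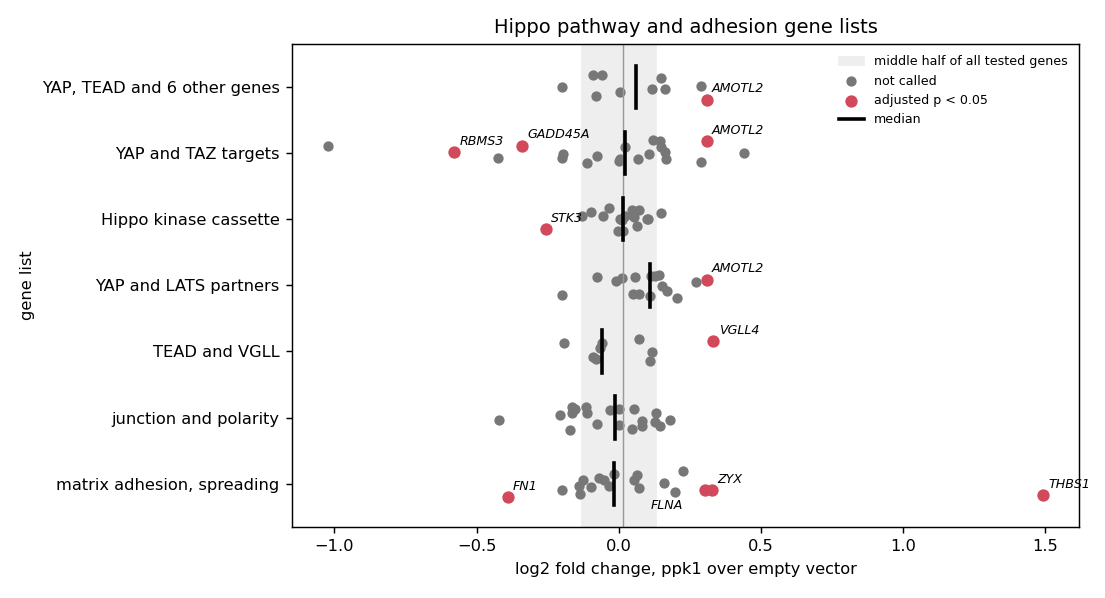
Log2 fold change of every tested gene of the 10 genes described here and of 6 pathway lists, with calls (adjusted p below 0.05) in red and named, list medians as black bars and the range between the quartiles of all tested genes shaded. List medians lie between -0.06 and 0.11, and THBS1 (1.49) stands apart at a mean of 8.5 counts.

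The plot of settings shows how the 2 genes with the smallest p-values behave when the processing is changed. AMOTL2 was above 0 and AJUBA below 0 in every one of the 16 alternatives. AMOTL2 was called in 7 of them and AJUBA in 3, all 3 of which leave out a library of replicate D. The pairs of each gene agreed in sign, so leaving out libraries could hardly change its direction. Fits without a single library resemble those without its pair, so the 16 alternatives are not independent and their counts are not separate support.

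**Figure D5:**
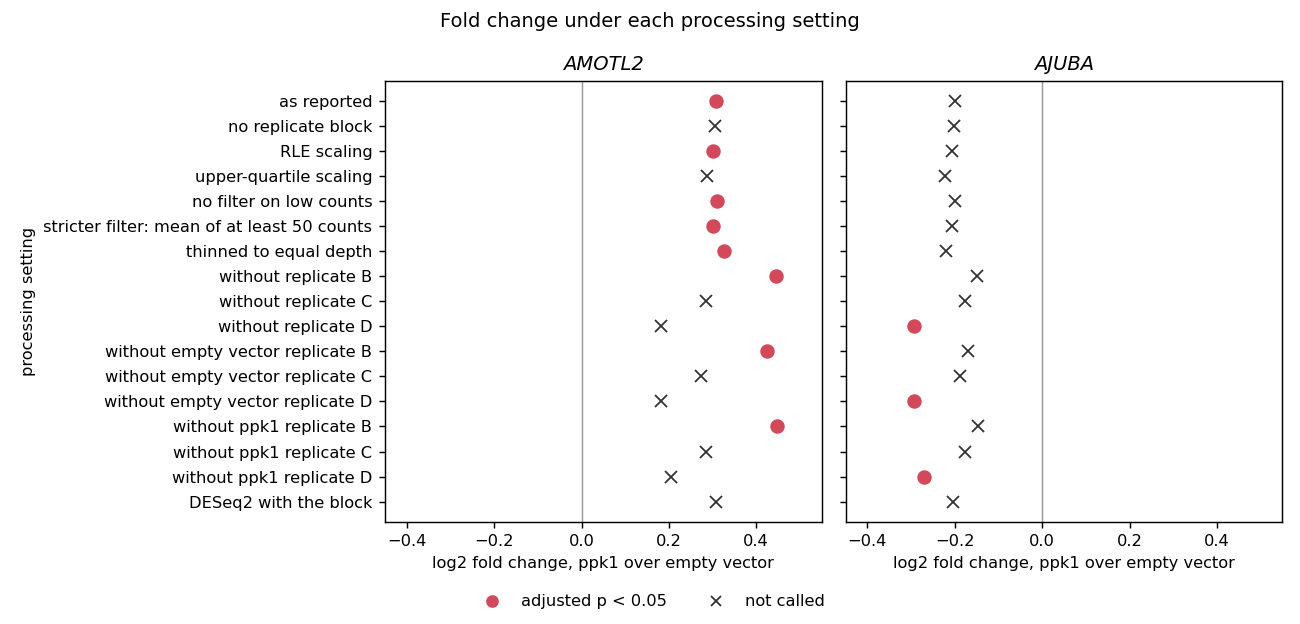
Log2 fold change of AMOTL2 (left) and AJUBA (right) under the reported setting and 16 alternatives, with red circles for an adjusted p below 0.05 and crosses otherwise. AMOTL2 ran from 0.18 to 0.45 and AJUBA from -0.29 to -0.15 over the alternatives.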

How the data were processed

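Poly(A)-selected RNA of 6 HEK293T cultures was sequenced from libraries made with a directional kit, per the labels' protocols. The authors deposited whole-number counts per Ensembl gene, treated here as raw counts. The submitters' processing notes name bcl2fastq 2.20, Trimmomatic, STAR, HTSeq, edgeR, DESeq, Cufflinks and Cuffdiff with no role. The genome build, annotation and use of strand in counting are not given in the sources used here, so no coordinates are given for the counted genes. Chromosomes are from GENCODE 29, and promoter positions are those of the RefSeq windows. Of the 10 genes, 4 overlap exons of a gene on the opposite strand and 2 on the same strand in GENCODE 29. None of these 6 other genes exceeded 0.606 CPM in a library, and at most 2.22% of any of the 10 genes' transcript sequence (50-base stretches) occurs in another gene.

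The 10 genes and the lists were chosen with earlier results of these data known. edgeR 4.0.16 in R 4.3.3 was run on all genes passing filterByExpr (minimum count 10, 19574 genes). It used TMM scaling, a quasi-likelihood test and Benjamini-Hochberg adjustment. The fit was also tested on simulated counts that held no effect of the replicate letter, so that run does not test the block. Intervals are 95% intervals from the standard error. The replicate letter was a block because the series' design text matches the libraries of a letter. After subtraction of group means, libraries sharing a letter correlated across genes at 0.11 (B), 0.14 (C) and 0.048 (D). CPM were computed from the TMM-scaled totals, with a prior count of 2 on the log2 scale. A count of 0 allows up to 3 counts, or 0.0447 to 0.0734 CPM, for counting error only. Alternatives were DESeq2 1.42.0, no block, RLE and upper-quartile scaling, other filters, thinning to equal depth, and leaving out pairs or single libraries. All 10 genes were named, plus up to 6 called genes of each list with the smallest adjusted p, with those called in the rarer direction where 5 or fewer, and the 3 genes most correlated with each of YAP1, CYR61 and CTGF. Genes named without a call (paralogs, relatives and integrins) were chosen after their values were seen.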

Additional observations from a re-analysis of the deposited data

How the results depend on the processing

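Without the replicate block, 470 of all genes were called in place of 1777, with 0 of the 10 genes (2 at an unadjusted p below 0.05). In the lists this left 1 YAP and TAZ target, 0 Hippo kinase genes, 0 partners, 1 TEAD and VGLL factor, 0 junction genes and 1 adhesion gene. DESeq2 called 755 of all genes, 0 of the 10 (2 at an unadjusted p below 0.05), 1 target, 0 kinase genes and 0 partners. It also called 1 TEAD and VGLL factor, 0 junction genes and 3 adhesion genes. Upper-quartile scaling left 0 of the 10 (2 at an unadjusted p below 0.05) and 0 partners called, and no filter left 0 kinase genes. In edgeR fits that left out a pair or a single library, calls ran from 405 to 2607 for all genes, 0 to 1 for the 10 genes, 0 to 3 for targets, 0 to 1 for kinases, 0 to 3 for partners, 0 to 2 for TEAD and VGLL factors, 0 to 4 for junction genes and 0 to 8 for adhesion genes; the lowest came without replicate C. Of all genes called, 44.5% were higher, against 18.9% without the block and 31.1% with upper-quartile scaling. A lone library of a letter adds nothing to a blocked difference, so these fits resemble those without its pair. Scaling by library total, chosen after seeing the data, left 4 of the 10 genes without overlap, beside 25.9% of all tested genes. CTGF turned to -0.0022 without the block, -0.0031 with RLE, -0.018 with upper-quartile scaling, -0.0026 with the stricter filter, -0.044 after thinning and -0.0033 in DESeq2, and ran from -0.11 to 0.11 with samples left out. For the other 9 genes, 131 of 143 values kept direction and call, 9 lost the call (AMOTL2), 3 gained it (AJUBA) and 0 changed direction. Values from fits that resemble each other are counted separately here. Of 123 values of the 8 other named genes, 42 lost the call and 0 changed direction. GGAATG was in 5 of 12 windows before the start alone. The cause was not tested. ANKRD1 and THBS1 are limited by depth.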

Other observations

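Among the 7 markers of the HEK293 line, 2 were called, beside 9.08% of all tested genes, and they are named here after their values were seen. KRT18, a keratin of simple epithelium, rose from 43.8 to 53.3 CPM (log2 fold change 0.28, SE 0.08, adjusted p 0.011 in edgeR), and NEFL, a neurofilament subunit, fell from 78.1 to 63.6 CPM (-0.29, SE 0.08, adjusted p 0.0079). Of the transcript sequence of KRT18, 14.35% also occurs in other genes, pseudogenes among them. Exons of KRT18 also overlap KRT8, another of these markers, on the opposite strand. Of the 8 fibroblast markers, 5 were tested and 1 was called, beside 9.08% of all tested genes. It was PDGFRB, which fell from 0.50 to 0.24 CPM (log2 fold change -1.07, SE 0.32, adjusted p 0.027 in edgeR). Both of its levels are low, so few counts underlie this fall. None of these 3 calls held without the replicate block (adjusted p 0.063, 0.078 and 0.065 for KRT18, NEFL and PDGFRB), and their other alternatives were not tabulated. Their part in the values of CTGF, CYR61 and FN1 was not tested.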
